A study of Homo sapiens with 8 samples.

Results

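To follow the structured noncoding RNAs of the cell in total RNA libraries, 7 genes were examined: RN7SL1, RN7SL2, RN7SK, RMRP, RPPH1, TERC and SCARNA2. They are 7 of the 60659 rows of the count table, matched to it by their GENCODE symbols. They had been selected on being seen in these libraries, so the choice used their measured abundance, and their levels are given here as a description without a test. The counts did not bear out that listing for all of them, because 5 of the 7 had 0 counts in each of the 8 libraries and only RN7SL1 and TERC had any.

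The libraries came from SK-N-SH, an established human neuroblastoma cell line, and RNA was depleted of ribosomal RNA and reverse transcribed from random hexamers. All 4 groups had received all-trans retinoic acid (ATRA) at 10 µM for 24 h in differentiation medium, so there was no group without it. In the overexpression experiment, parental cells with doxycycline (Dox) were set against ZMYND8 overexpression cells with Dox, which carried ZMYND8 in the inducible lentiviral vector pInducer20 and had been selected with G418. The sources used here name no empty vector or G418 selection for the parental cells. Vector, selection and ZMYND8 thus cannot be told apart in that comparison. Differences between the effects of the experiments, given below, carry the same limit. In the knockdown experiment, KD control cells were set against ZMYND8 knockdown cells. The methods describe lentiviral shRNA in pLKO.1, but how the knockdown of these libraries was made is not given in the sources used here. Each group had 2 libraries, named biological replicates in the labels. Whether they came from separate cultures is not said, so the p-values measure the spread between these libraries only. The KD control libraries are titled CONTROLI and CONTROLII, and whether these were different controls is not said.

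The RNAs of this set are parts of ribonucleoprotein machines. RN7SL1 and RN7SL2 encode 7SL, the RNA scaffold of the signal recognition particle (SRP), which carries ribosomes making secreted and membrane proteins to the endoplasmic reticulum. RN7SK encodes 7SK, which with HEXIM proteins holds the elongation kinase P-TEFb inactive. RMRP and RPPH1 are the RNA subunits of RNase MRP and RNase P, which process ribosomal and transfer RNA precursors. TERC is the template RNA of telomerase, and SCARNA2 is a Cajal body RNA that guides modification of spliceosomal RNA. RNA polymerase III transcribes 7SL, 7SK, RMRP and RPPH1, while TERC and SCARNA2 are products of RNA polymerase II.

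The 7SL genes lie close together on chromosome 14 of the hg38 genome and belong to a family with many copies, which bears on the row a read can be assigned to. RN7SL1 lies at chr14:49586580-49586878 on the plus strand, RN7SL2 at chr14:49862550-49862849 on the minus strand and RN7SL3, a further 7SL copy that is not among the 7, at chr14:49853616-49853914 on the minus strand. For the other RNAs, the stretches that bear on how their rows were counted are shown with each RNA, 5′ to 3′ on its own strand in hg38.

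How far a sequence is unique was measured by sliding a window along each RNA and asking whether the same letters occur anywhere else on the primary chromosomes. Of the 269 stretches of 31 bases in RN7SL1, 0 occurred once, and the most repeated occurred 41829 times. RN7SL2 had 12 unique stretches of 270 and RN7SL3 had 65 of 269. With windows of 150 bases, 34% were unique in RN7SL1, 34.44% in RN7SL2 and 100% in RN7SL3. At the other end, 100% of the 31-base stretches of RPPH1, TERC and SCARNA2 were unique, as were 233 of the 234 in RMRP. The read length and the treatment of reads with several matches are not given in the sources used here, so the share of 7SL reads that could be placed is unknown.

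RN7SL1 (ENSG00000276168, annotated as a misc_RNA of 299 bases) had the highest count of all rows in each of the 8 libraries. In the parental libraries it took 611848 and 573324 counts, and in the ZMYND8 overexpression libraries 802615 and 477301. In the KD control libraries it took 885206 and 757784 counts, and in the ZMYND8 knockdown libraries 966779 and 948354. Between 1.056% and 1.746% of all counts on genes fell on this one row. Scaled to CPM, the counts of a row relative to the library's total on genes, the libraries stood at 13721 and 10555 for parental cells, 16968 and 12457 for overexpression, 16316 and 13470 for KD control and 17457 and 17012 for knockdown. The libraries of the first 3 groups overlapped in CPM, and both knockdown libraries lay above the other 6.

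Normalized counts, scaled with trimmed mean of M-values (TMM) factors, gave the same order of group means. They were 646920 ± 118690 in parental, 653760 ± 146180 in overexpression, 774940 ± 113030 in KD control and 930520 ± 9101.6 in knockdown cells (SD, n = 2 each). Parental and overexpression cells, the lowest pair of neighbours in this order, differed by far less than either SD. Overexpression and KD control overlapped as well, with libraries at 757130 and 550400 against 854860 and 695010. Between KD control and knockdown there was no overlap, since the knockdown libraries stood at 936960 and 924090.

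The replicates of RN7SL1 lay far apart for a row with so many counts. Their absolute log2 ratio of normalized counts was 0.38 in parental, 0.46 in overexpression and 0.30 in KD control cells. Over the 8415 genes with a mean normalized count above 1000, the median of this ratio was 0.05 to 0.06 in the 4 groups, and 99.2% to 99.5% of these genes had closer replicates than RN7SL1 in those 3 groups. In the knockdown group the RN7SL1 replicates were only 0.02 apart, closer than most, with 16.7% of the genes closer still. Counting error was small beside this, since the Wilson 95% interval of the share of counts in parental replicate 1 was 1.3686% to 1.3755%, so the spread between libraries sets the precision of every RN7SL1 comparison.

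**Figure D1:**
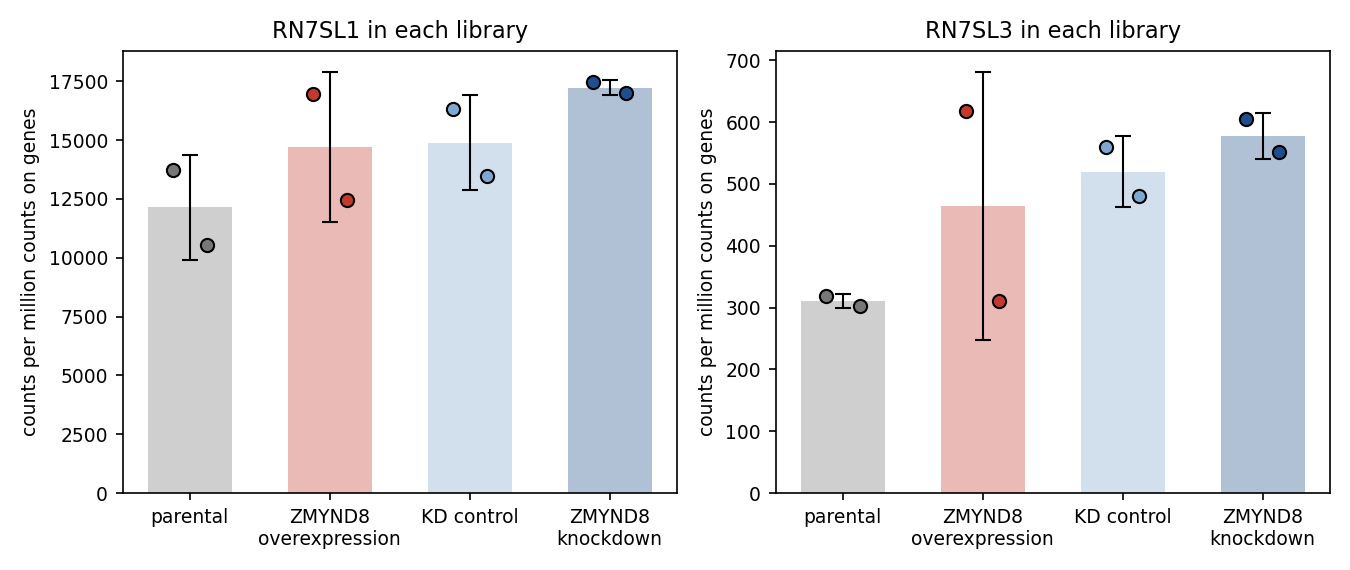
CPM (counts relative to the library's total on genes, linear axis from 0) of RN7SL1 (left) and RN7SL3 (right) in each of the 8 libraries, with a point for each library and bars for the group mean with its SD (n = 2). RN7SL1 ranged from 10555 to 17457 CPM, and the knockdown pair was the highest and the closest together.

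In the overexpression experiment RN7SL1 did not pass the test. The fitted log2 fold change of overexpression over parental cells was 0.03 with a standard error of 0.14 (quasi-likelihood test of edgeR, Benjamini-Hochberg adjusted p = 0.89). It was the single member of the 7 that passed the filter on low counts there, so 0 of 1 tested was called, against a background of 31.7% of the 20835 genes higher and 29.1% lower at an adjusted p below 0.05. A stricter call, which also asked for a mean normalized count over 20 and a change of 1 or more in size on the log2 scale, took 18.6% of the genes and no member. The direction rested on single libraries: without overexpression replicate 1 the value was -0.22 (adjusted p = 0.0425), and without parental replicate 2 it was -0.15 (adjusted p = 0.279). A group left with 1 library is assumed to vary like the other group in such fits.

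In the knockdown experiment RN7SL1 rose by a log2 fold change of 0.27 with a standard error of 0.09 (edgeR adjusted p = 0.0449). Both knockdown libraries exceeded both control libraries. This made 1 of 1 tested member higher and 0 lower at an adjusted p below 0.05, where 13.4% of 19789 genes were higher and 10.8% lower. The stricter call took 1.96% of the genes and did not include RN7SL1, since the change was below a log2 fold change of 1. The call rested on 1 library: without KD control replicate 2 the log2 fold change was 0.13 (adjusted p = 0.373). It was also lost with DESeq2, at 0.27 (adjusted p = 0.179), and over the 15 alternatives the adjusted p ran from 0.0066 to 0.373.

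The difference between the 2 effects, tested over all 8 libraries, was -0.25 on the log2 scale with a standard error of 0.19 (edgeR adjusted p = 0.311). The call depended on the fit, since the difference passed with no filter on low counts at -0.33 (adjusted p = 5.61e-04), with the replicate number as a block at -0.26 (adjusted p = 0.0155) and with the block and the length and GC correction at -0.36 (adjusted p = 0.0016). It was 0.07 with library totals alone (adjusted p = 0.799). Without overexpression replicate 1 it was -0.50 (adjusted p = 0.0248). Of the 7 members, RN7SL1 and TERC passed the filter of the 8-library fit, and 0 of these 2 were called in either direction. The background of that test was 24.6% of 22619 genes higher, 24.4% lower and 18.8% past the stricter call.

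KD control against parental cells compares the 2 control groups across the experiments, in which the handling of the cells and Dox changed together and cannot be told apart. Whether the libraries were also made separately is not said in the labels, so any such difference cannot be told apart from these either. RN7SL1 differed by 0.26 with a standard error of 0.14 (edgeR adjusted p = 0.106), and 0 of 2 members tested were called. In the same fit 31.2% of 22619 genes were higher, 33.9% lower and 20.4% past the stricter call. The value depended on length and GC content, since a correction for their trends moved it to 0.77 (adjusted p = 1.76e-04).

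Some facts of the whole series bear on these values. The libraries held 38316523 to 54320055 counts on genes in the overexpression experiment and 54254164 to 56256979 in the knockdown experiment. ZMYND8 itself had 3618 ± 101 normalized counts in parental, 209520 ± 1887 in overexpression, 3058 ± 52.1 in KD control and 1594 ± 5.41 in knockdown cells (SD, n = 2), in the directions the labels name. With library totals alone in place of TMM factors, the median log2 fold change of all genes moved from 0.03 to 0.28 in the overexpression experiment and from -0.01 to -0.07 in the knockdown experiment. Of the neuroblastoma markers, 7 of 8 adrenergic and 6 of 6 mesenchymal genes had more than 3 counts in every library. The summed adrenergic level was 313.1 to 316.5 CPM in parental and 1279 to 1357 in overexpression cells, and 715.5 to 764 in KD control and 544.5 to 601.5 in knockdown cells. The mesenchymal sum was 4739 to 4818, 2336 to 2498, 2414 to 2463 and 2659 to 2833 CPM in the same order. VIM and FN1 weighed most in it, at means of 68522 and 62879 normalized counts. Singly, 1 mesenchymal gene was higher and 5 lower with overexpression, and 2 higher and 2 lower with knockdown (edgeR adjusted p below 0.05). Of all genes, 31.7% were higher and 29.1% lower with overexpression, and 13.4% and 10.8% with knockdown. Leukocyte markers summed to at most 0.2949 CPM, Schwann and glial markers to at most 4.358 CPM and epithelial markers, which the cell type in the labels names, to 192.6 to 443.3 CPM. KRT18 led the epithelial sum at a mean of 16622 normalized counts. The means were 1993 for KRT8, 48.7 for KRT19, 40.8 for EPCAM and 2.69 for CDH1. The part of these shifts in the levels of the structured RNAs was not tested. In bulk RNA, fewer cells of a type and less RNA per cell cannot be told apart.

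RN7SL2 (ENSG00000274012, 300 bases), the second 7SL gene, had 0 counts in all 8 libraries. A count of 0 allows up to 3 counts, which is 0.0533 to 0.0783 CPM across the libraries and covers counting error only. All of its 300 bases lay within the exons of a longer row on the same strand, the lncRNA ENSG00000282885 of 2034 exonic bases, which had 36 to 68 counts a library. RN7SL1, by contrast, shared no base with another row.

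RN7SL3 was singled out after its values were seen, as a 7SL copy without overlap. Its levels were 16578 ± 577.53 normalized counts in parental, 20664 ± 9768.3 in overexpression, 27063 ± 3252.9 in KD control and 31188 ± 1772.4 in knockdown cells (SD, n = 2). At the same length of 299 bases, it held 2.324% to 3.642% of the counts of RN7SL1. Its change passed the test in neither experiment, with log2 fold changes of 0.33 (edgeR adjusted p = 0.238) and 0.21 (adjusted p = 0.0759). With overexpression it was 0.75 without overexpression replicate 2 (adjusted p = 1.30e-08) and -0.26 without overexpression replicate 1 (adjusted p = 5.09e-04), so single libraries set its direction. With knockdown it passed without KD control replicate 1 at 0.33 (adjusted p = 0.0144), without knockdown replicate 2 at 0.27 (adjusted p = 0.00315) and with DESeq2 at 0.21 (adjusted p = 0.0279). A group of 677 RN7SL pseudogene rows, likewise chosen after the values were seen, had counts in 302 rows and summed to 0.799% to 2.015% of the RN7SL1 counts in the overexpression experiment and 3.441% to 4.503% in the knockdown experiment. One of them, RN7SL5P, fell by 1.46 on the log2 scale with overexpression (adjusted p = 0.00111) and rose by 1.00 with knockdown (adjusted p = 0.0177), the latter at 0.57 (adjusted p = 0.0581) without KD control replicate 2. When all 7SL rows were summed, the log2 fold change in the knockdown experiment was 0.27 (adjusted p = 0.0466), close to that of RN7SL1 by itself.

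RN7SK (ENSG00000283293) had 0 counts in all libraries. Its 328 bases at chr6:52995621-52995948 on the plus strand lay wholly inside a row named 7SK (ENSG00000202198), a misc_RNA of 331 bases on the same strand, which also had 0 counts. Neither of the paired rows thus gave a level of 7SK RNA. Part of the RNA is unique: 31 of 298 stretches of 31 bases occurred once on the primary chromosomes, though 89 occurred on the 430 other contigs of the assembly too. The unique stretches cover 95 bases in 1 block near the 3′ end, shown in capitals in the 3′ part of the RNA at chr6:52995834-52995948.
RN7SK 3′ part: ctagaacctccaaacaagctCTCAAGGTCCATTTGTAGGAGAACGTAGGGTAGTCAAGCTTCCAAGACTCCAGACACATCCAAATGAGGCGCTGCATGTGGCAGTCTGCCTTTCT
All 179 windows of 150 bases in RN7SK were unique, but with windows of 100 bases 110 of 229 were (48.03%).

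RN7SK pseudogene rows, chosen after their values were seen, did have counts. Of 293 such rows 113 had any, and together they held 531 to 703 counts in the overexpression experiment and 1030 to 1626 in the knockdown experiment. The best counted, RN7SKP203, stood at 318.93 and 271.02 normalized counts in parental, 355.63 and 337.87 in overexpression, 553.36 and 578.73 in KD control and 1037 and 861.38 in knockdown cells. It rose by 0.75 on the log2 scale with knockdown (edgeR adjusted p = 5.08e-04), and its value with overexpression was 0.25 (adjusted p = 0.112), or 0.50 with library totals alone (adjusted p = 0.00448). Reads of 7SK and of its copies can be hard to tell apart, so this row is no measure of 7SK itself.

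RMRP (ENSG00000277027, 264 bases at chr9:35657754-35658017 on the minus strand) had 0 counts as well. It lay wholly inside ENSG00000269900, a row at chr9:35657751-35658018 that adds 4 bases and also had 0 counts. The sequence of that row is shown with the 4 bases outside RMRP in capitals, to show how little of either row was free of the other.
ENSG00000269900: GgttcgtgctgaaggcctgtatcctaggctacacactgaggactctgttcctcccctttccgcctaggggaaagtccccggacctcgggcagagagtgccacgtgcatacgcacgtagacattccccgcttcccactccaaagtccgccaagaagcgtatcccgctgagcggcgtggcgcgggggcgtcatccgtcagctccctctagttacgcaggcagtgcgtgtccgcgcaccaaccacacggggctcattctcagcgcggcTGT
RPPH1 (ENSG00000277209, 333 bases at chr14:20343075-20343407 on the minus strand), the RNase P counterpart, had 0 counts in all libraries. It lay inside the lncRNA ENSG00000259001 of 638 bases, of which 305 were outside RPPH1, and that row had 7 counts over all 8 libraries. For both RNAs nearly every 31-base stretch was unique in the genome.

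TERC (ENSG00000270141, 541 bases at chr3:169764520-169765060 on the minus strand) was the other member with counts. It had 1 and 2 counts in parental, 9 and 10 in overexpression, 4 and 1 in KD control and 6 and 2 in knockdown libraries. Both overexpression libraries lay above the other 6, and the remaining 3 groups overlapped. A row named Telomerase-vert (ENSG00000277925) covered 438 of the 541 bases and had 0 counts, which left 103 bases to TERC alone. Those lie at its ends, 13 at the 5′ end and 90 at the 3′ end, and are shown in capitals at chr3:169765021-169765060 and chr3:169764520-169764629.
TERC 5′ end: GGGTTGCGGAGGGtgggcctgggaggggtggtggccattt
TERC 3′ end: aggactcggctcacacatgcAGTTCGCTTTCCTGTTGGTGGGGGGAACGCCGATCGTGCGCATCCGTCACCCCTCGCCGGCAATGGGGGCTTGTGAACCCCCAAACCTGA

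Summed over the replicates, TERC had 19 counts with overexpression against 3 in parental cells, a CPM ratio of 7.32 with an exact 95% interval of 2.15 to 38.6 that covers counting error only. With knockdown it had 8 counts against 5, a ratio of 1.59 with an interval of 0.459 to 6.18. TERC was below the filter in both experiments and so had no test there. Without the filter the log2 fold change with overexpression was 2.53 (edgeR adjusted p = 0.0233), but with DESeq2 it was 2.64 (adjusted p = 0.167), and without either parental replicate the adjusted p was 0.112 and 0.0831. With knockdown it was 0.70 (edgeR adjusted p = 0.722). In the 8-library fit the difference between the 2 effects was 1.83 with a standard error of 1.36 (adjusted p = 0.293), so a different response was not detectable at this depth.

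SCARNA2 (ENSG00000278249, 420 bases at chr1:109100193-109100612 on the plus strand) had 0 counts in every library. It lay within the lncRNA ENSG00000270066 of 427 bases, 7 of them outside SCARNA2, and that row had 0 counts too. All 390 of its 31-base stretches were unique.

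The 5 members without counts thus had 1 feature in common that the choice had not used, which was that each lay wholly within another row on its own strand. Over the whole table, 1161 of 1282 such rows (90.56%, Wilson 95% interval 88.84 to 92.04) had 0 counts in all libraries. Of the 42261 rows that shared no base, 41.82% had 0 counts, and of the 774 rows covered only by a row on the opposite strand, 27.26% had 0 counts. Among small structured RNA biotypes the 0 counts covered 392 of 392 rows inside a same-strand row, 45 of 95 inside an opposite-strand row and 2770 of 4450 without overlap. Of 27 pairs of rows that covered at least 90% of each other, 23 pairs had 0 counts on both rows, and 3 of the pairs held a member. The counting program leaves a read that meets more than 1 row uncounted unless it is told otherwise. The setting used here is not given in the sources, and its part in the zeros was not tested. A 0 in these rows thus limits the counts assigned to the row and not the amount of the RNA.

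**Figure D2:**
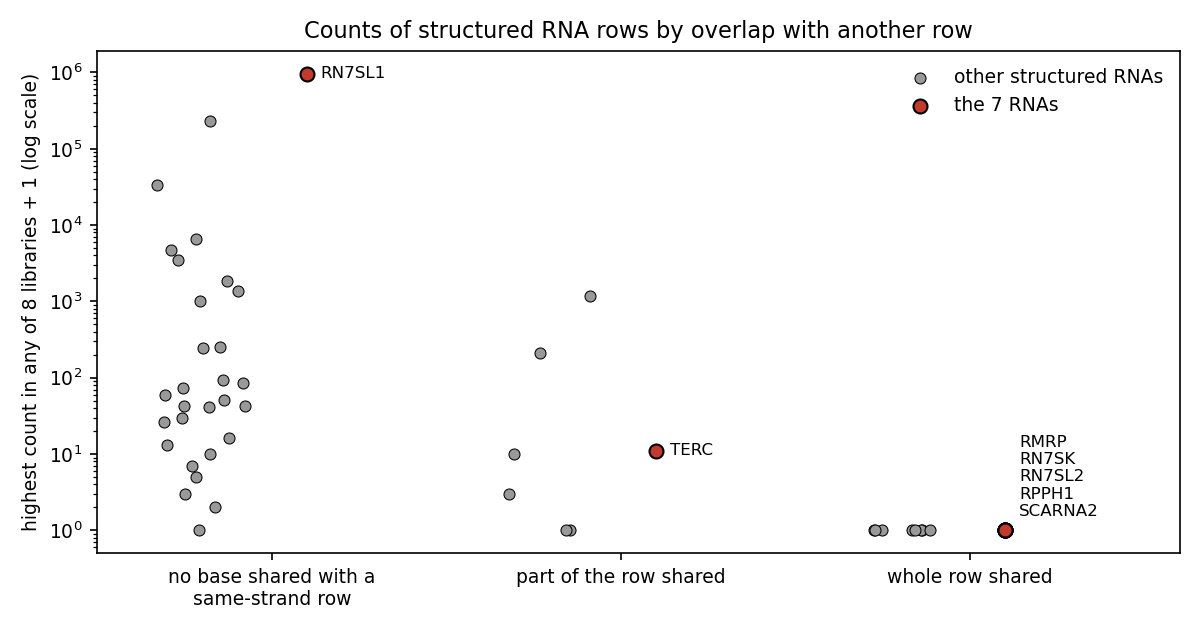
Highest count in any of the 8 libraries plus 1 (log axis) for structured RNA rows, by whether none, part or all of the row was shared with another row on the same strand. The 5 members whose whole row was shared sit at 0 counts, TERC at 10 counts in the partly shared class and RN7SL1 at 966779 counts among the rows without overlap.

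The same division held in a list of 43 other structured noncoding RNAs, of which 42 were in the table. All 8 that lay wholly inside another row had 0 counts, as had 2 of 6 that were partly shared and 1 of 28 that shared no base, RNU2-1, a U2 spliceosomal RNA gene. Of the 31 with counts, 23 had every library of the knockdown experiment above every library of the overexpression experiment, and 0 had the reverse. The share of all rows separated in this way was not counted, so the 23 cannot be set against it. Between the control groups, 31.2% of 22619 genes were higher and 33.9% lower at an adjusted p below 0.05. SNORD3A, the U3 RNA of ribosomal RNA processing, had 221 to 500 counts in the overexpression experiment and 174354 to 230717 in the knockdown experiment, a CPM ratio of 476. In SNORD3A 1 of 669 stretches of 31 bases and 14.18% of the windows of 150 bases were unique. The share of U3 reads that could be placed on this row is thus unknown. SCARNA7 had 33 to 60 against 3759 to 4716 counts, a ratio of 75.5, and SCARNA5 had 1555 to 2216 against 4171 to 6509, a ratio of 2.37. The ratio for RN7SL1 was 1.20 and for TERC 0.492, so neither pooled ratio was of that size. The TERC ratio pooled its 19 overexpression counts with its 3 parental counts. Between the control groups TERC had 5 counts in KD control against 3 in parental cells, a log2 fold change of 0.51 with a standard error of 1.13 (adjusted p = 0.712), too wide to tell whether it had a gap.

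Between the control groups, 23 of the 24 tested RNAs of this list were higher in KD control than in parental cells and 0 were lower at an adjusted p below 0.05. Over all genes 31.2% were higher and 33.9% lower. The median log2 fold change was 2.68 against 0.00 for all genes. The filter on low counts used all 8 libraries here, while 13 of the list passed it in the overexpression experiment alone. Rows that passed only through the knockdown experiment, where they were high, could hardly come out lower. The count and the median are thus partly set by the filter. Other measures moved with the experiment as well. Mitochondrial genes took 0.1097% to 0.1678% of counts in the overexpression experiment and 2.92% to 3.41% in the knockdown experiment, and the mitochondrial ribosomal RNAs 8 to 22 against 26192 to 47973 counts. All snoRNA rows together took 0.004092% to 0.006494% against 0.3344% to 0.4344%. The part of these differences in the RN7SL1 and TERC levels was not tested, and the experiment and any difference in how the libraries were made cannot be told apart. Within the experiments fewer of the list were called, against 31.7% higher and 29.1% lower of all genes with overexpression and 13.4% and 10.8% with knockdown. With overexpression 0 of 13 tested rose and 1 fell, SCARNA9, by 1.35 on the log2 scale (edgeR adjusted p = 0.0146). That fall rested on 24 and 28 counts in parental and 15 and 6 in overexpression libraries. Of the 353 bases of SCARNA9, 149 were shared with other rows on the same strand. With knockdown 7 of 24 rose and 0 fell, with a median of 0.25, and RNY1, a Ro-associated Y RNA, rose most at 1.20 (adjusted p = 0.041) from 15.452 and 16.509 to 25.198 and 48.721 normalized counts. Single libraries decided these calls: the 7 became 2 without KD control replicate 1, 3 without KD control replicate 2 and 13 without knockdown replicate 1. The adjusted p of RNY1 was 0.149, 0.16 and 0.386 without KD control replicates 1 and 2 and knockdown replicate 2, and that of SCARNA9 was 0.0535 without parental replicate 1 and 0.112 without overexpression replicate 2.

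**Figure D3:**
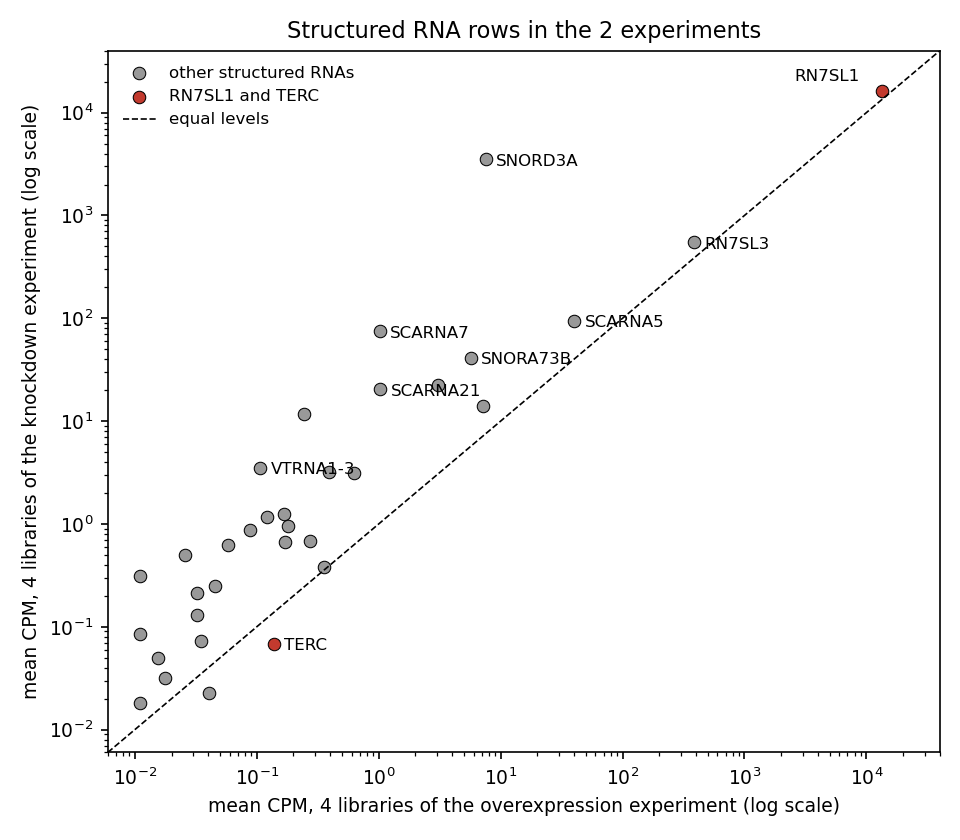
Mean CPM of each structured RNA row in the 4 libraries of the overexpression experiment (x axis) and of the knockdown experiment (y axis), both on log axes with 0.5 counts added, and a dashed line of equal levels. SNORD3A lies far above the line at a CPM ratio of 476, while RN7SL1 at 1.20 lies close to it and TERC at 0.492 below it, a ratio that pools its 19 overexpression counts with its 3 parental counts.

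The protein partners of these RNAs were measured on mRNA, and all of those listed were tested except RPP21 of RNase P, at 0 counts, and BDP1 of TFIIIB, with 2 counts over all 8 libraries. For 7SL, the list held the 6 SRP proteins and both subunits of the SRP receptor. With overexpression all 8 were lower and 0 higher at an adjusted p below 0.05, with a median log2 fold change of -0.29 against 0.03 for all genes, of which 31.7% were higher and 29.1% lower. SRP9, which binds the Alu end of 7SL, fell most, by 0.61 (SE 0.063, edgeR adjusted p = 1.07e-05), from 15110 and 13820 to 9873.8 and 8943.8 normalized counts. SRPRA, the receptor subunit that meets SRP at the membrane, fell by 0.60 (adjusted p = 2.48e-06). The count depended on the scaling: with library totals alone 2 were lower and 1 was higher, with a median of -0.04 against 0.28 for all genes, and after correction for gene length and GC content 5 passed. With knockdown 2 were higher and 2 lower, with a median of 0.05, where 13.4% of all genes were higher and 10.8% lower. SRP72 rose by 0.33 (adjusted p = 6.61e-04) and SRP19 fell by 0.22 (adjusted p = 0.0245). The 4 calls with knockdown became 2 without KD control replicate 1, 1 without KD control replicate 2 and 2 without knockdown replicate 1, and SRP19 lost its call in each of these (adjusted p of 0.106, 0.101 and 0.0833). The test of the difference between the 2 effects called 0 of the 8 higher and 7 lower, where 24.6% of all genes were higher and 24.4% lower. The overexpression effect that enters this difference depends on the scaling as given above.

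Of 7 genes of the 7SK complex and P-TEFb, 3 were higher and 1 lower with overexpression (median 0.14), and 0 were higher and 1 lower with knockdown (median -0.03). The shares over all genes were 31.7% higher and 29.1% lower with overexpression and 13.4% and 10.8% with knockdown, so these counts lay near the background. HEXIM1, the inhibitor that acts on P-TEFb within the 7SK complex, stood at 4576.1 and 4481.7 normalized counts in parental and 4980.8 and 5138.4 in overexpression cells, a rise of 0.17 (edgeR adjusted p = 0.011). In the knockdown experiment it went from 3883.2 and 4055.7 to 3192.4 and 3214.6, a fall of 0.31 on the log2 scale (adjusted p = 0.00162). The groups did not overlap in either experiment, and the 2 effects differed by 0.47 (adjusted p = 4.75e-05). CCNT1, the cyclin of P-TEFb, had a log2 fold change of -0.15 with overexpression (adjusted p = 0.0182), which turned to 0.10 with library totals alone and to 0.04 after the length and GC correction. The 4 calls of this list with overexpression became 1 without either parental replicate, and the adjusted p of HEXIM1 was then 0.0614 and 0.0844.

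Proteins of RNase P and RNase MRP did not move together. Of 10 tested among 11 listed, 2 were higher and 3 lower with overexpression (median -0.05), and 0 higher and 2 lower with knockdown (median 0.00), which lay near the shares over all genes of 31.7% and 29.1% with overexpression and 13.4% and 10.8% with knockdown. RPP25, a subunit that binds the RNA, had the largest change of any partner gene, from 359.54 and 335.83 to 1491.4 and 1577.5 normalized counts with overexpression, a log2 fold change of 2.15 (SE 0.081, edgeR adjusted p = 4.65e-09). In the knockdown experiment its value was 0.05, and the 2 effects differed by 2.10 (adjusted p = 3.60e-09). RPP40 fell by 0.46 with overexpression (adjusted p = 0.00674), and RPP38 fell by 0.46 with knockdown (adjusted p = 0.00503). RPP38 was also lower with overexpression, by 0.31 (adjusted p = 0.0119). Its 2 effects did not differ detectably (0.14, adjusted p = 0.396). With library totals alone the value of RPP40 was -0.21 (adjusted p = 0.147), and the 2 calls with knockdown became 1 when any 1 of the 4 libraries was left out.

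Among the 10 telomerase and H/ACA proteins, 1 was higher and 4 lower with overexpression (median -0.02), while 3 were higher and 0 lower with knockdown (median 0.09), against 31.7% higher and 29.1% lower of all genes with overexpression and 13.4% and 10.8% with knockdown. WRAP53, which brings telomerase to Cajal bodies, rose from 821.81 and 809.14 to 1082.9 and 1126.6 normalized counts with overexpression, by 0.45 on the log2 scale (edgeR adjusted p = 3.31e-04). GAR1, a core H/ACA protein, fell by 0.42 in the same comparison (adjusted p = 2.35e-04). With knockdown, DKC1, the H/ACA pseudouridine synthase, rose by 0.36 (adjusted p = 0.00131). The 3 calls with knockdown became 1 without either KD control replicate, and the 5 with overexpression became 3 without parental replicate 1 or overexpression replicate 2. For the 8 box C/D and Cajal body proteins, partners of RNAs such as SCARNA2, the counts were 1 higher and 2 lower with overexpression (median -0.02) and 4 higher and 0 lower with knockdown (median 0.17), beside the same shares over all genes. FBL, the box C/D methyltransferase, was called higher in both, by 0.19 (adjusted p = 0.00736) and 0.34 (adjusted p = 8.76e-04), but the former was 0.005 after the length and GC correction (adjusted p = 0.934), and its adjusted p was 0.0509 and 0.0501 without either parental replicate and 0.0513 with DESeq2. NOP58 of the same complex fell by 0.38 with overexpression (adjusted p = 2.33e-04), and its value with library totals alone was -0.13 (adjusted p = 0.0842).

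RNA polymerase III, which makes 5 of the 7 RNAs, was described by 13 subunits and 20 factors. Over all genes, 31.7% were higher and 29.1% lower with overexpression and 13.4% and 10.8% with knockdown. Of the subunits 0 were higher and 5 lower with overexpression (median -0.08), but with library totals alone 7 were higher and 0 lower, so no direction of the list is drawn there. With knockdown 4 were higher and 0 lower (median 0.13), and 1 higher and 1 lower with library totals alone. POLR3G, an alternative subunit known from stem cells and tumours, was the named subunit in both comparisons. It went from 375.07 and 342.71 to 254.7 and 226.02 normalized counts with overexpression, a fall of 0.56 on the log2 scale (SE 0.126, edgeR adjusted p = 0.00277). With knockdown it went from 263.64 and 254.05 to 491.36 and 479.41, a rise of 0.91 (SE 0.108, adjusted p = 1.97e-04). The groups did not overlap, and the 2 effects differed by -1.48 (adjusted p = 2.93e-06). Of 19 factors tested, 6 were higher and 5 lower with overexpression (median -0.03) and 2 higher and 2 lower with knockdown (median -0.02), close to the shares over all genes. BRF1 of the initiation factor TFIIIB rose by 0.43 with overexpression (adjusted p = 1.31e-04), though after the length and GC correction its value was 0.10 (adjusted p = 0.163). GTF3A, the factor TFIIIA of 5S ribosomal RNA genes, fell by 0.54 with overexpression (adjusted p = 2.52e-05) and rose by 0.19 with knockdown (adjusted p = 0.0286). SNAPC5, a subunit of the complex that starts 7SK and RMRP transcription, fell by 0.35 with knockdown (adjusted p = 0.00993). It was also lower with overexpression, by 0.38 (adjusted p = 0.00219), and its 2 effects did not differ detectably (-0.03, adjusted p = 0.847). Without KD control replicate 2 the adjusted p of GTF3A was 0.22 and of SNAPC5 0.0628, and without knockdown replicate 2 that of GTF3A was 0.124. The fall of POLR3G with overexpression was -0.31 with library totals alone (adjusted p = 0.0514) and -0.30 after the length and GC correction (adjusted p = 0.0629). The 4 subunit calls with knockdown became 1 without either KD control replicate and 2 without knockdown replicate 2. The 11 factor calls and 5 subunit calls with overexpression became 5 and 3 without parental replicate 1, and the 4 factor calls with knockdown became 1 without KD control replicate 2 and 2 without knockdown replicate 2.

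**Figure D4:**
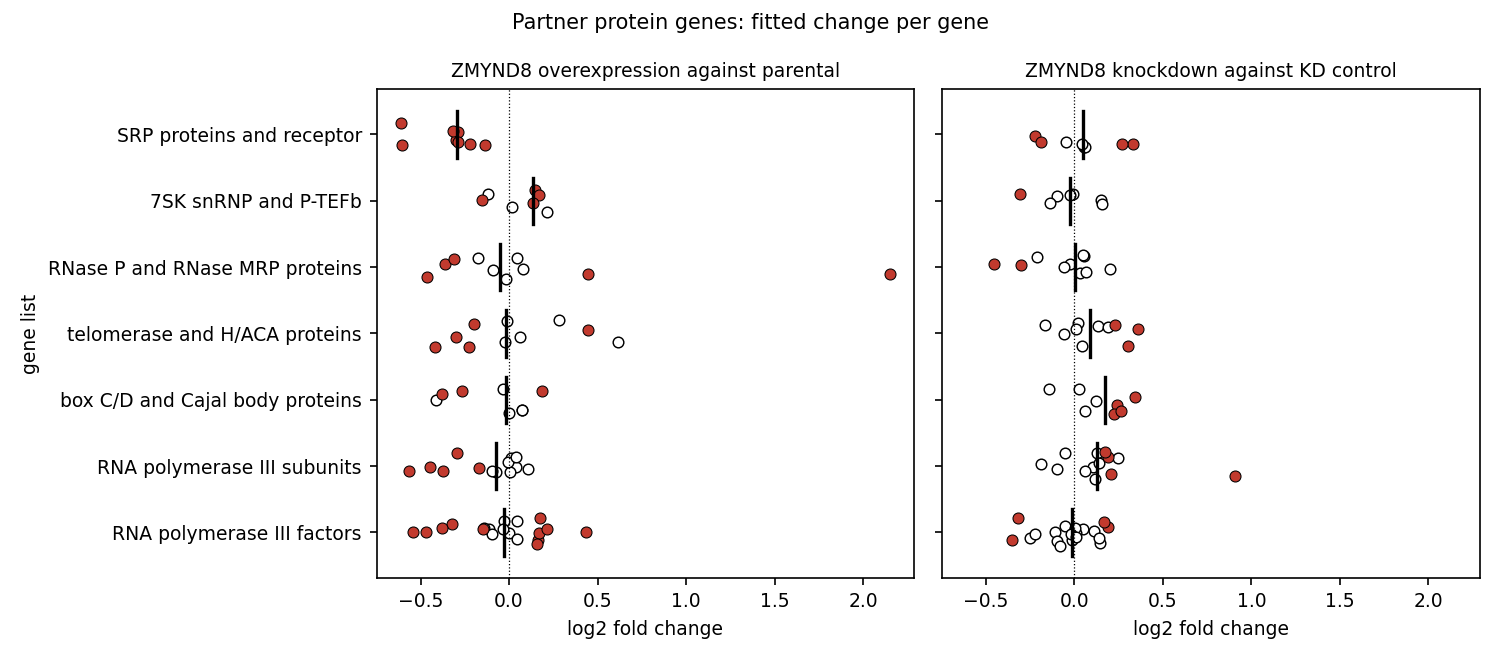
Fitted log2 fold change (x axis) of each partner gene in 7 lists (y axis) with overexpression and with knockdown, 1 point per gene, filled where the adjusted p was below 0.05, with a bar at each list's median and a dotted line at 0. The 8 SRP genes all lie left of the line with overexpression, RPP25 stands out to the right at 2.15, and POLR3G lies at -0.56 and 0.91 in the 2 comparisons.

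The genes whose levels over the 8 libraries were most like those of RN7SL1 were SLC35A4 and RN7SL3, with Pearson's r of 0.948 and 0.935 among 13555 genes with a mean normalized count above 100. For TERC they were PEMT and CDR2L, with r of 0.968 and 0.963. These are descriptions over libraries that share 2 experiments and differ in depth, and TERC contributes at most 10 counts a library. The 5 members at 0 counts had no pattern to compare.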

How the data were processed

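SK-N-SH total RNA was sequenced in 8 libraries, 2 in each of 4 groups taken from GEO's labels. The authors deposited raw counts per gene. Per the methods, paired-end reads were trimmed, HISAT2 placed them on GRCh38 and featureCounts counted them, with no strand, overlap or multiple-match setting stated. Of 60662 lines, 3 of 1 split gene were left out. Symbols came from GENCODE 44, which held 60462 of the identifiers.

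The 7 members and the partner lists were chosen with earlier results of these data known. After filterByExpr and TMM scaling, counts entered the two-sided quasi-likelihood test of edgeR 4.0.16 (R 4.3.3, limma 3.58.1), adjusted over all genes by Benjamini-Hochberg. Each experiment was fitted with its own 4 libraries, and the difference between the effects and the comparison of the controls with all 8. From each partner list, the text names the gene that rose most and the gene that fell most past an adjusted p of 0.05, besides counts. SRPRA, RN7SL3, RN7SL5P, RN7SKP203, SNORD3A, SCARNA5, SCARNA7 and RNU2-1 were named after their values were seen. The fits were tested on simulated data. Sequences and window uniqueness came from the hg38 genome. The 7SL sequences are not reported here. Alternatives were other scalings, DESeq2 1.42.0, no filter, a replicate block, a length and GC correction, each library left out, and summed 7SL rows, the last chosen after seeing the data.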

Additional observations from a re-analysis of the deposited data

Results flagged for a closer look

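For the genes named here that were fitted in both experiments, the effects of overexpression and knockdown were set against each other. By edgeR's quasi-likelihood test over all 8 libraries, adjusted over all genes, 17 differed. Most of these genes were named for a change in these same libraries or after their values were seen, so the 17 are no independent test. Over all 22619 genes, 24.6% were higher and 24.4% lower in the same test. The differences (overexpression effect minus knockdown effect, log2) are given without an explanation.

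The difference was 0.47 for HEXIM1 (0.17 against -0.31, adjusted p = 4.75e-05), -0.61 for NOP58 (-0.38 against 0.22, adjusted p = 3.54e-05) and -2.47 for RN7SL5P (-1.46 against 1.00, adjusted p = 4.05e-04). It was -0.74 for GTF3A (-0.54 against 0.19, adjusted p = 5.74e-06), -1.48 for POLR3G (-0.56 against 0.91, adjusted p = 2.93e-06) and -0.47 for SRP72 (-0.14 against 0.33, adjusted p = 2.37e-05). It was -0.57 for DKC1 (-0.20 against 0.36, adjusted p = 3.74e-05) and -0.66 for GAR1 (-0.42 against 0.23, adjusted p = 9.60e-05).

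For RPP25 the difference was 2.10 (2.15 against 0.05, adjusted p = 3.60e-09), for RPP40 -0.53 (-0.46 against 0.06, adjusted p = 0.0125) and for BRF1 0.48 (0.43 against -0.05, adjusted p = 4.36e-04). For WRAP53 it was 0.50 (0.45 against -0.06, adjusted p = 0.00251), for SRP9 -0.43 (-0.61 against -0.19, adjusted p = 0.00127), for SCARNA9 -1.09 (-1.35 against -0.27, adjusted p = 0.028) and for RN7SKP203 -0.51 (0.25 against 0.75, adjusted p = 0.0191). For SRPRA it was -0.65 (-0.60 against 0.04, adjusted p = 2.70e-06). ZMYND8, the targeted gene, differed by 6.80 (5.86 against -0.94, adjusted p = 4.07e-16). RN7SL1 was not among those that differed. TERC was below the filter in both experiments and so was not among the genes compared here.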

How the results depend on the processing

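RN7SL1 kept neither its direction with overexpression nor its call with knockdown under all alternatives. With overexpression its main log2 fold change of 0.03 turned to -0.048 after the length and GC correction and to -0.055 with the replicate block added, and ran from -0.22 to 0.24 with 1 library left out. With knockdown the change of 0.27 missed the threshold with upper quartile factors (0.25), library totals (0.21), DESeq2 (0.27), no filter (0.27) and all 8 libraries in 1 fit (0.26), and ran from 0.13 to 0.42 with 1 library left out. The difference between the effects was 0.067 with library totals, passed the threshold without the filter (-0.33), with the replicate block (-0.26) and with the block and correction (-0.36), and ran from -0.499 to -0.037 with 1 library left out. KD control against parental passed, among other settings, without the filter (0.26), with the block (0.27), with the correction (0.77) and with both (0.78). Of its 18 alternatives, 10 stayed on the side of the threshold of the main result. With 1 library left out it ran from 0.091 to 0.457. In all of these the cause was not tested.

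Genes called were 3879, 388, 4249 and 4604 in the order overexpression, knockdown, difference and controls, against 11335, 4707, 10101 and 12873 without a fold threshold and 2334, 174, 2726 and 2740 at a mean normalized count above 100. With 1 library left out they ran from 3637 to 4123, 343 to 462, 3953 to 4220 and 4352 to 4707. Whether same-numbered libraries were prepared as pairs is not said in the labels. Their deviations correlated with r = -0.182 and -0.095 in the 2 experiments, which cannot decide it. The replicate block changed the RN7SL1 calls only as given above.

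Of single genes, CCNT1 turned with overexpression to 0.10 with library totals and 0.043 after the correction with and without the block. RN7SL3 with overexpression ran from -0.257 (without overexpression replicate 1) to 0.748 (without replicate 2), and TERC in the control comparison from -0.738 (without KD control replicate 1) to 1.194 (without replicate 2). Among the other values of named genes 413 kept direction and side of the threshold, 39 lost it and 10 gained it. Of the list counts 181 stayed within 1.5 times the main count and 59 did not. TERC had at most 10 counts a library, which limits the precision of its values. The cause of its low counts and of the rows at 0 was not tested.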
